A study of Mus musculus with 12 samples.

Results

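The 3 libraries of C18-4 cells given virus for overexpression of lncRNA8276 (8276OV) were compared directly with the 3 libraries given virus for its inhibition (8276KD), out of 12 libraries in the series. The other 6 are controls, 3 libraries each of 3NC and 5NC. Of 17576 genes in the table, 11360 reached a value of 1 in 3 or more of the 12 libraries and were tested. A gene was called ordered where the means of both controls lay between the 8276KD and 8276OV means on the log2(value + 1) scale, which held for 1497 genes, 13.2% of those tested, and not for the other 9863. The working description of the comparison, in which the controls lie between the opposite manipulations, thus held for a minority of genes.

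C18-4 is a cell line derived from mouse spermatogonia, the germ cells from which sperm arise, and the labels give its strain as IRC mouse. All 12 libraries were made from total RNA of this line, and the cells were transfected with virus. The labels do not say what 3NC and 5NC contain, how the inhibition was achieved, or whether replicate libraries are separate cultures. The p-values therefore reflect the spread among these libraries alone, and that spread may be technical. The design text names 5NC next to overexpression and 3NC next to knockdown, and each was taken as the control of that manipulation. No untreated cells are among the groups, and the line is a single source of cells. None of the listed genes could be matched by name to lncRNA8276, so its overexpression and inhibition could not be checked.

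Long noncoding RNAs are transcripts that are not translated into protein and can act on chromatin, on transcription or on other RNAs. A gene whose level follows the amount of such an RNA would be lowest or highest in the knockdown, at the other extreme under overexpression, and in between in cells with neither. Among the pathways examined, the integrated stress response is a program in which the translation factor eIF2 is phosphorylated, the transcription factor ATF4 is made, and genes of amino acid supply and stress are induced. Stem spermatogonia depend on GDNF, a growth factor from Sertoli cells that keeps factors such as ID4 and ETV5 expressed.

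The values were read as FPKM (fragments scaled by transcript length and library depth), and their sums per library ranged from 533099 to 561940. The depth implied by genes above 0 in a single library was 11600000 to 13200000 fragments, an approximate figure. Correlations of log2 values were 0.993 to 0.998 within groups and 0.956 to 0.982 between 8276OV and 8276KD libraries. Markers of germ cells were mostly absent: 22 of 32 markers in the table stayed below 1 in all libraries, with highest values of 0.17 for Gfra1, 0.03 for Ddx4 and 0.05 for Dazl. Of the markers of other cells of the testis, those of mesothelium were the most abundant (Upk3b 233 to 804, Krt19 177 to 374 and Wt1 49.0 to 62.8). Msln (62.4 to 93.9), Upk1b (53.8 to 151), Krt18 (42.4 to 82.6) and Gpm6a (27.0 to 111) of that list were also well above 1 in all libraries. Some other members of the list were low or absent. Of its 18 markers 4, among them Cdh1 and Aldh1a2, stayed below 1 in all libraries, and Krt8 and Muc16 reached at most 3.22 and 1.26. Wt1 is also on the list of Sertoli markers. Of 9 endothelial and 9 macrophage and blood markers in the table, 8 and 7 stayed below 1 in all libraries. The second libraries of 8276KD and 8276OV stood apart from their groups in how their values followed the GC content of transcripts. The slope of the log2 deviation was 0.184 per 10 points of GC content in the second 8276KD library against -0.0402 and -0.00192 in the others, and -0.237 in the second 8276OV library against -0.462 and -0.355. It was 0.103 to 0.151 in 3NC and 0.148 to 0.198 in 5NC.

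Expression differed between 8276OV and 8276KD at most tested genes, with small differences at most of them. Of the 11360 genes, 7744 (68.2%) were called at an adjusted p below 0.05, 3396 (29.9%) higher and 4348 (38.3%) lower in 8276OV. The excess of lower calls depended on the scaling, with 3971 higher and 3678 lower after quantile normalization and 3986 and 3838 with median-of-ratios factors. The 3 values of one group lay above the 3 of the other for 7606 genes (67.0%). Far fewer genes, 237 (2.09%), were called with a difference past 1 on the log2 scale, 77 higher (0.678%) and 160 lower (1.41%). Without the second libraries of both groups 7577 genes were called.

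For most of these genes one or both controls fell outside the interval spanned by 8276KD and 8276OV. The most frequent pairs of lowest and highest group were 3NC with 8276OV (29.4% of genes) and 5NC with 8276OV (29.3%). The pair of 8276KD with 8276OV, which defines an ordered gene, came next with 13.2%, ahead of the 2 controls with each other (12.5%), 5NC with 8276KD (10.3%) and 3NC with 8276KD (5.2%). Among the 7744 called genes the ordered share was 18.2%. The ranking of pairs changed after correction for the GC content of transcripts, when 3NC with 8276OV held 24.5%, the 2 controls with each other 20.2%, 5NC with 8276KD 17.4%, 5NC with 8276OV 15%, 8276KD with 8276OV 13.5% and 3NC with 8276KD 9.4%. Of the 6336 called genes that were not ordered, 2353 had both controls beyond 8276KD, so that 8276OV stood alone at one end, while 195 had both controls beyond 8276OV. In 1785 only 3NC lay outside, in 1462 only 5NC, and in 541 the controls lay outside on opposite sides.

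**Figure D1:**
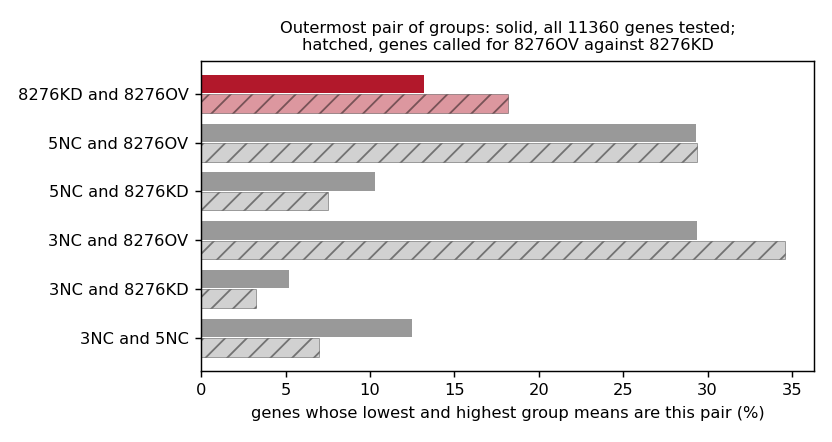
Share of genes (%, horizontal axis) for which each pair of groups (vertical axis) holds the lowest and the highest of the 4 group means; solid bars are all 11360 tested genes, hatched bars the 7744 genes called between 8276OV and 8276KD. The pair of 8276KD and 8276OV, in red, holds 13.2% of tested and 18.2% of called genes, below both pairs of 8276OV with a control in the values as deposited.

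The ordered genes that also differed between 8276OV and 8276KD numbered 1408 (12.4% of tested genes), of which 631 (5.55%) were higher and 777 (6.84%) lower in 8276OV. Since the order was read from the same means, it is a description and was not tested. Ordered genes differed by a median of 0.496 on the log2 scale, against 0.357 for called genes that were not ordered. A gene must span both controls to be ordered, so this larger median follows in part from the rule. The 3NC mean lay at a median of 0.267 of the way from 8276KD to 8276OV and the 5NC mean at 0.422. In 925 of the 1408 genes (65.7%) 3NC was the control nearer to 8276KD, and in 483 it was 5NC. Every one of the 6 control libraries lay between all libraries of 8276KD and all of 8276OV in 287 genes (2.53% of tested genes), 108 higher and 179 lower.

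Genes near the boundary were many. In 529 called and ordered genes a control mean lay within 0.05 (log2) of its bound, and 733 called genes missed the order by less than 0.05. Genes named below are among the 529, such as Jup, Bcam, H2-K1, Hspb1, Loxl2 and Cdc20. Wfdc1, a gene of a small secreted protein with a whey acidic protein domain, was just inside, with a mean of 7.41 ± 1.2 (SD, n = 3) in 3NC and 7.48 ± 1.59 in 8276KD. Mmrn1, the gene of the platelet and endothelial protein multimerin, was just outside, with 0.353 ± 0.10 in 3NC and 0.393 ± 0.0723 in 8276KD.

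Against its own control, each manipulation differed at a different share of the ordered genes. For 8276OV against 5NC 987 of the 1408 were called (74.4% of all tested genes), and for 8276KD against 3NC 440 (39.4% of all tested genes). Both were called in 320 genes, 8276OV only in 667, 8276KD only in 120 and neither in 301. The sign of both comparisons is set by the rule, so only their calls are counted here. Where these differences are given below for single ordered genes, their signs follow from the rule too and do not bear on the order. The 2 own-control differences themselves differed at 1140 of the 1408 (60.6% of all tested genes). In an ordered gene they have opposite signs by the rule, so the larger share among ordered genes follows in part from the selection. The difference between the controls themselves, 5NC minus 3NC, was called at 6414 genes (56.5%). Among the 7744 genes called between 8276OV and 8276KD it was called with the same sign at 2913 and with the opposite sign at 1515, and it was larger in size than the difference of interest at 2064 (26.7%). Of the 237 genes past 1 on the log2 scale, 83 (35.0%) were ordered and 174 had a called control difference of the same sign.

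The GC content of transcripts moved with the comparison. Genes lower in 8276OV had a median GC content of 53.8% when ordered and 54.7% when not, and genes higher in 8276OV 44.3% and 44.7%, against 49.7% for all tested genes. Across 11197 genes, which are not independent replicates and share the 6 libraries, Spearman's rho between GC content and the log2 difference was -0.654. In 10 bins of GC content the median difference went from 0.27 in the bin with the lowest GC content to -0.495 in the highest, and called and ordered genes higher in 8276OV went from 133 to 2, while the share of ordered genes stayed between 10.8% and 15.3%. After the trend with GC content was removed from each library, 6663 genes (59.5% of 11197) were called, 3240 higher and 3423 lower, and 1368 (12.2%) were called and ordered. Of 1385 ordered and called genes for which GC content was known, 1094 kept call and sign after the correction, 6 changed sign and kept a call, and 285 lost the call. Of the 1094, 650 were also still ordered. The part of GC content in the difference between 8276OV and 8276KD was not tested.

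**Figure D2:**
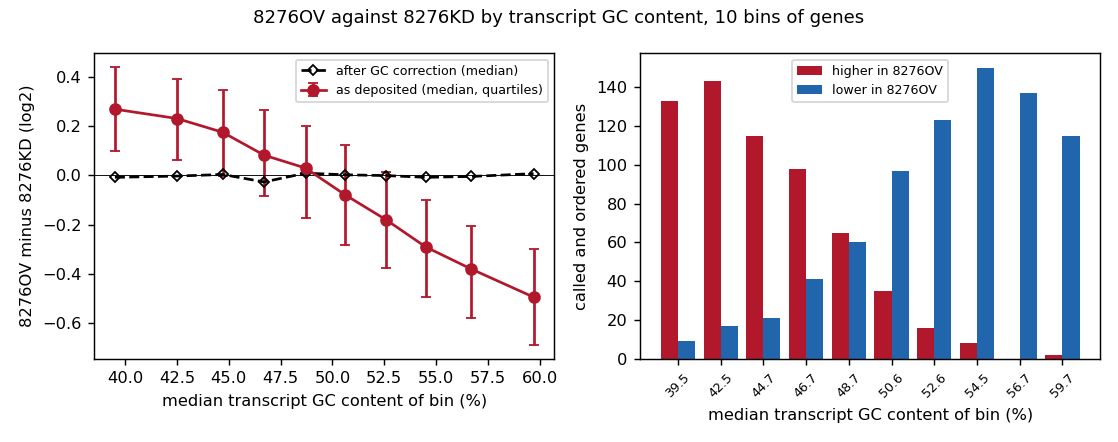
Left, log2 difference of 8276OV minus 8276KD (vertical axis) by median transcript GC content (%) of 10 bins of genes; circles with bars are medians and quartiles of the deposited values, diamonds medians after GC correction. Right, number of called and ordered genes per bin, with 133 higher in 8276OV in the bin of lowest GC content and 115 lower in the bin of highest.

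Among the largest rises of ordered genes from 8276KD to 8276OV, some had the 4 groups at separate levels and others had the controls far apart. Cxcl10, an interferon-inducible chemokine gene (gene 15945, chromosome 5, 92346638 to 92348889), was at 7.01, 7.47 and 8.15 in 8276KD, 13.4, 14.3 and 13.1 in 3NC, 20.9, 20.1 and 19.6 in 5NC and 29.8, 26 and 30.1 in 8276OV. No library of one group overlapped another group. The log2 difference of 8276OV and 8276KD was 1.79 (SE 0.067, adjusted p = 4.46e-10), with 0.48 against 5NC and -0.77 for 8276KD against 3NC, both called. Crebrf, a regulator of CREB3 transcription factors (gene 77128, chromosome 17, 26715594 to 26776637), had 2.7, 2.13 and 2.42 in 8276KD, 4.06, 3.8 and 3.71 in 3NC, 5.46, 5.18 and 5.68 in 5NC and 8.98, 7.19 and 8.48 in 8276OV. Its groups did not overlap either, and its difference was 1.43 (SE 0.083, adjusted p = 1.63e-08), with almost equal steps of 0.51 and -0.51 against the own controls.

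Cnr1, the cannabinoid receptor gene (gene 12801, chromosome 4, 33923171 to 33948831), had 4.24, 3.05 and 4.01 in 8276KD, 8.2, 8.59 and 7.97 in 3NC, 6.32, 6.51 and 6.11 in 5NC and 11.2, 9.92 and 11.2 in 8276OV. Its controls were separate as well, but with 5NC below 3NC. The difference was 1.31 (SE 0.086, adjusted p = 4.90e-08), 0.68 against 5NC and -0.97 for 8276KD against 3NC. Sumo2, the gene of a ubiquitin-like protein modifier (gene 170930, chromosome 11, 115523109 to 115536230), had 666, 567 and 643 in 8276KD, 873, 832 and 809 in 3NC, 765, 796 and 779 in 5NC and 1456, 1253 and 1455 in 8276OV. All control libraries lay between the manipulated groups, and the difference was 1.15 (SE 0.065, adjusted p = 1.37e-08). Sumo2 has processed copies in the genome, and reads of such copies cannot be assigned with certainty.

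In 4 of the named rises 8276KD stood beside 3NC and 8276OV beside 5NC. Sema3a, the gene of a secreted axon guidance protein (gene 20346, chromosome 5, 13124822 to 13603485), had 13.5, 10.4 and 13.4 in 8276KD, 13.7, 12.6 and 12.8 in 3NC, 43.8, 46 and 44.7 in 5NC and 51.2, 42.8 and 47.5 in 8276OV. Both manipulated groups overlapped their own control, while the difference of 1.85 between 8276OV and 8276KD (SE 0.086, adjusted p = 2.45e-09) stood beside one of 1.71 between the controls. Sytl2, an effector of RAB27 in vesicle transport, went from 1.16 ± 0.146 (SD, n = 3) in 8276KD and 1.25 ± 0.159 in 3NC to 5.78 ± 0.348 in 5NC and 6.42 ± 0.258 in 8276OV. Ogn, a small leucine-rich proteoglycan gene, went from 2.74 ± 0.566 and 2.84 ± 0.0961 to 10.4 ± 0.274 and 11 ± 0.908, and Scel, the gene of the envelope precursor sciellin, from 2.9 ± 0.374 and 3.09 ± 0.202 to 9.01 ± 0.436 and 11.8 ± 0.505. Their differences between 8276OV and 8276KD were 1.78, 1.70 and 1.72, and those between the controls 1.59, 1.56 and 1.29. Of these 4 genes only Scel was called against either own control (8276OV against 5NC, 0.36, adjusted p = 6.98e-04). After GC correction Sema3a, Sytl2 and Ogn kept their calls but were no longer ordered.

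**Figure D3:**
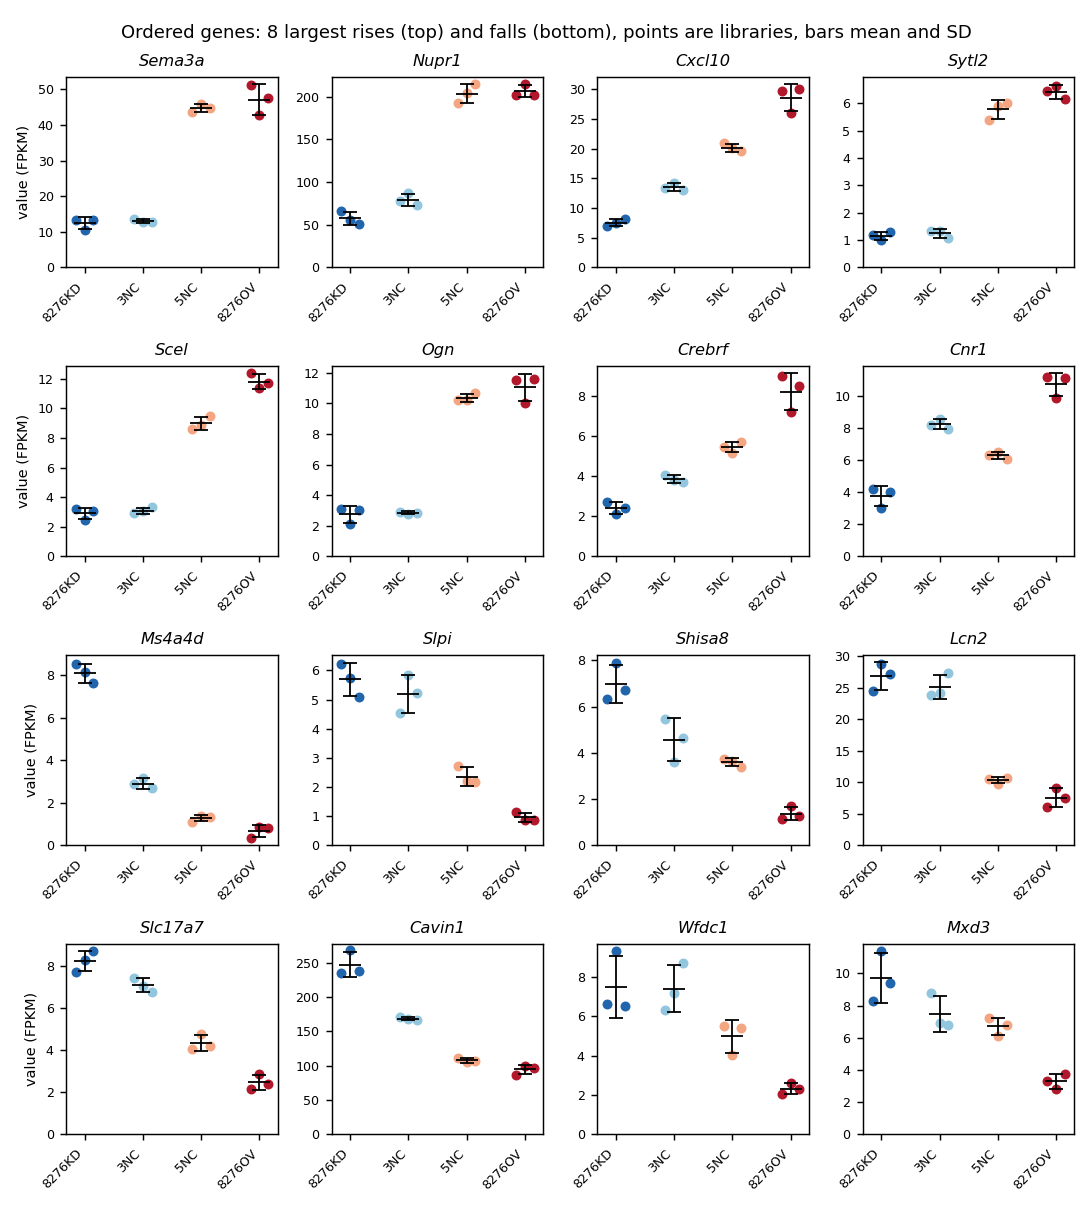
Values (FPKM, vertical axes from 0) of the ordered genes with the 8 largest rises and the 8 largest falls in 8276KD, 3NC, 5NC and 8276OV; points are libraries, bars the mean and SD of 3. In Cxcl10 and Crebrf the groups rise in 4 separate steps, whereas in Sema3a, Sytl2 and Ogn the libraries of 8276KD lie with 3NC and those of 8276OV with 5NC.

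The largest fall of an ordered gene was that of Ms4a4d, a gene of a membrane protein with 4 membrane-spanning segments (gene 66607, chromosome 19, 11536794 to 11558466). It was at 8.5, 8.15 and 7.62 in 8276KD, 2.86, 3.18 and 2.67 in 3NC, 1.1, 1.4 and 1.34 in 5NC and 0.35, 0.87 and 0.79 in 8276OV. The 4 groups did not overlap, and the difference was -2.46 (SE 0.11, adjusted p = 1.92e-09), with -0.46 against 5NC and 1.22 for 8276KD against 3NC. Related Ms4a4 genes lie nearby, and reads shared with them could not be checked. Cavin1, which encodes a coat protein of caveolae (gene 19285, chromosome 11, 100956736 to 100970617), had 235, 268 and 238 in 8276KD, 170.1, 168 and 167 in 3NC, 111, 105 and 106 in 5NC and 86.9, 99.2 and 96.7 in 8276OV. Again no groups overlapped, and the difference was -1.38 (SE 0.057, adjusted p = 1.14e-09), or -0.98 after GC correction, when the gene was no longer ordered. Cdc42ep2, an effector of the GTPase CDC42 (gene 104252, chromosome 19, 5917556 to 5924816), had 34.8, 38.9 and 31.7 in 8276KD, 23.2, 22.8 and 23.2 in 3NC, 20.5, 24.3 and 21.2 in 5NC and 12.3, 16.2 and 12.3 in 8276OV. Here the 2 controls overlapped and stood about midway, with steps of similar size to 8276OV (-0.66) and to 8276KD (0.58). Of the ordered genes named here for their size of change it had the smallest difference between 5NC and 3NC (-0.07).

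Shisa8, the gene of a brain membrane protein (gene 435145, chromosome 15, 82206173 to 82212848), had 6.31, 7.89 and 6.72 in 8276KD, 5.48, 3.6 and 4.64 in 3NC, 3.73, 3.64 and 3.39 in 5NC and 1.14, 1.68 and 1.26 in 8276OV. Slc17a7, the vesicular glutamate transporter gene (gene 72961, chromosome 7, 45163921 to 45176139), had 7.71, 8.24 and 8.68 in 8276KD, 7.43, 7.02 and 6.75 in 3NC, 4.02, 4.74 and 4.2 in 5NC and 2.14, 2.86 and 2.38 in 8276OV. In both, all control libraries lay between the manipulated groups, and the differences were -1.76 (SE 0.12, and -1.12 after GC correction) and -1.42 (SE 0.082). Mxd3, a gene of the MYC and MAX network, went from 9.7 ± 1.57 (SD, n = 3) in 8276KD through 7.47 ± 1.12 in 3NC and 6.71 ± 0.546 in 5NC to 3.28 ± 0.445 in 8276OV. Wfdc1 fell by 1.34 on the log2 scale, to 2.32 ± 0.285 in 8276OV, a change that lay at the overexpression end (-0.85 against 5NC, and 0.01 for 8276KD against 3NC with adjusted p = 0.975).

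The remaining falls had the controls far apart. Lcn2, the gene of the siderophore-binding lipocalin, went from 26.9 ± 2.21 in 8276KD and 25.1 ± 1.95 in 3NC to 10.3 ± 0.495 in 5NC and 7.56 ± 1.53 in 8276OV. Slpi, a secreted protease inhibitor gene, went from 5.69 ± 0.568 and 5.2 ± 0.656 to 2.36 ± 0.315 and 0.96 ± 0.165, and Cnn1, the gene of the smooth muscle protein calponin, from 5.73 ± 0.891 and 4.94 ± 0.293 to 2.83 ± 0.367 and 1.89 ± 0.361. Their differences were -1.72, -1.77 and -1.22 between 8276OV and 8276KD and -1.21, -0.88 and -0.64 between 5NC and 3NC. In none of the 3 was 8276KD called against 3NC (adjusted p = 0.517, 0.402 and 0.241). Of the 10 named falls, 9 stayed ordered after GC correction, with Cavin1 as the exception.

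Genes of the integrated stress response were higher in 8276OV than in 8276KD, and 6 of them were ordered (5.55% of all tested genes were ordered and called higher). Of 30 tested, 23 were called higher and 2 lower, against 29.9% and 38.3% of all tested genes, with a median of 0.371 on the log2 scale against -0.045 over all genes, and 29 were called higher after GC correction (median 0.579). The controls differed in the same way, with 27 of 30 higher in 5NC than in 3NC (30.6% of all tested genes) and a median of 0.54. Against its own control, 8276OV was called lower at 22 and higher at 3 (44.1% and 30.3% of all tested genes), and 8276KD lower than 3NC at 15 (19.5% of all tested genes).

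The 6 ordered members were Nupr1, Ddit3, Cebpg, Slc7a11, Mthfd2 and Nars. Nupr1, a stress-induced regulator of transcription (gene 56312, chromosome 7, 126623246 to 126625470), had 65.9, 55.2 and 50.9 in 8276KD, 78.2, 86.8 and 73.2 in 3NC, 193, 204 and 214.5 in 5NC and 202, 214 and 202 in 8276OV. 8276OV and 5NC overlapped and 8276KD lay below 3NC, so that the difference of 1.84 (SE 0.083, adjusted p = 1.99e-09) stood beside 1.35 between the controls, 0.02 against 5NC (adjusted p = 0.851) and -0.47 for 8276KD against 3NC (adjusted p = 6.18e-04). Ddit3, which encodes the stress transcription factor CHOP (gene 13198, chromosome 10, 127290793 to 127296291), had 59, 66.1 and 63.7 in 8276KD, 88.4, 88.4 and 86 in 3NC, 107, 103 and 108 in 5NC and 122, 133 and 119 in 8276OV. Its 4 groups did not overlap, and both own-control comparisons were called (0.23 for 8276OV and -0.47 for 8276KD, within 0.97 between them).

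Cebpg, a dimer partner of ATF4, was at 18, 15.9 and 17.9 in 8276KD, 22.7, 22 and 22.6 in 3NC, 33.7, 34.9 and 33.7 in 5NC and 38.1, 34.5 and 38.5 in 8276OV. Slc7a11, the cystine and glutamate exchanger gene, was at 4.23, 3.79 and 4.58 in 8276KD, 5.64, 6.55 and 6.16 in 3NC, 8.27, 9.11 and 8.54 in 5NC and 10.9, 8.77 and 9.55 in 8276OV. Both were called lower in 8276KD than in 3NC (-0.36 and -0.45), and their libraries of 5NC and 8276OV overlapped. Nars, the cytosolic asparaginyl-tRNA synthetase gene, rose in 4 steps that did not overlap, from a mean of 317 ± 11.1 (SD, n = 3) in 8276KD through 379.6 ± 5.12 and 400.3 ± 5.64 to 491 ± 8.81, with 0.29 against 5NC and -0.26 for 8276KD against 3NC, both called. Mthfd2, a mitochondrial folate enzyme gene, differed by 0.82, beside 0.70 between the controls, and was called in neither own-control comparison (adjusted p = 0.0888 and 0.457). After GC correction Nupr1, Ddit3, Mthfd2 and Nars were still ordered, and Cebpg and Slc7a11 were not. Slc7a1, a cationic amino acid transporter gene of the list, was not ordered: it was at 46.3 ± 0.648 in 8276KD, 43.4 ± 0.525 in 3NC, 88.5 ± 1.62 in 5NC and 79.4 ± 2.85 in 8276OV.

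The promoters of the ordered stress response genes Nupr1, Ddit3, Cebpg and Slc7a11 are shown because these genes moved together. Those of Cxcl10 and Ms4a4d are shown with them. Among the named ordered genes whose 4 groups did not overlap, these had the largest rise and the largest fall. Those of Mthfd2 and Nars, which were also ordered, are not shown. Cebpg, Ddit3 and Slc7a11 were added to the rule for named genes after their values were seen. Each sequence is the 250 bases before the start in RefSeq (GRCm38.p6), 5′ to 3′ on the gene's strand, and capitals mark matches on either strand to TGATGNAA, the C/EBP-ATF response element to which ATF4 dimers bind. This motif was also added after the values were seen.
Nupr1, chr7:126625471-126625720 (- strand): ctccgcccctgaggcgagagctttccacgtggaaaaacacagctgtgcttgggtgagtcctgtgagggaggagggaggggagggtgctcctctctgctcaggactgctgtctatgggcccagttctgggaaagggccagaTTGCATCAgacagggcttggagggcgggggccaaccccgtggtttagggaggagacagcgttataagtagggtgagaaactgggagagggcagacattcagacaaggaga
Ddit3, chr10:127290543-127290792 (+ strand): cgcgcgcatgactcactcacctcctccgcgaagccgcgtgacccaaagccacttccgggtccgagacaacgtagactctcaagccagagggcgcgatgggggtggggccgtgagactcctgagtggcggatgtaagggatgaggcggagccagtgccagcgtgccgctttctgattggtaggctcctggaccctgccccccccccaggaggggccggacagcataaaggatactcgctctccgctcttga
Cebpg, chr7:35056567-35056816 (- strand): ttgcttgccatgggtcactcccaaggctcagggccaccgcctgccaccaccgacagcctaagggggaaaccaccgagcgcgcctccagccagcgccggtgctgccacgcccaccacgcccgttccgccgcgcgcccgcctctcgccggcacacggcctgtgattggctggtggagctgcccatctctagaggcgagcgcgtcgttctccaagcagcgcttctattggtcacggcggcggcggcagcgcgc
Slc7a11, chr3:50443614-50443863 (- strand): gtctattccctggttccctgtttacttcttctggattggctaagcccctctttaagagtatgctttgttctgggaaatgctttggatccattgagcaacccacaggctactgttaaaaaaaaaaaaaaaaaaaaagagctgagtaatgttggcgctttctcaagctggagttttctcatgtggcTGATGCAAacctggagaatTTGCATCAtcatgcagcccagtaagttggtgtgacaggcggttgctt
Cxcl10, chr5:92348890-92349139 (- strand): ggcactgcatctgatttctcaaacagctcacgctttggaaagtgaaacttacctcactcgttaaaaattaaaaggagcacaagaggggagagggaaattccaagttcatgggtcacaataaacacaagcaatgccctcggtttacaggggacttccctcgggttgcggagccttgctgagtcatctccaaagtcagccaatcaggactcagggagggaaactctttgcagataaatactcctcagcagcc
Ms4a4d, chr19:11536544-11536793 (+ strand): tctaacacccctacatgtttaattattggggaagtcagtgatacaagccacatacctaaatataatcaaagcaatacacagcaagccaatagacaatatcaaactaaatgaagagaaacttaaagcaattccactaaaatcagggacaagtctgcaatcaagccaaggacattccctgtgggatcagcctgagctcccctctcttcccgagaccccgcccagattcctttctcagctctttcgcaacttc
The match stood at -110 to -103 from the start in Nupr1 and at -66 to -59 and -47 to -40 in Slc7a11, and no match was found in the other 4 windows. It was present in 7 of 25 list members with a promoter (28.0%), 15 of 488 called and ordered genes that were higher (3.07%), 11 of 648 that were lower (1.70%), 169 of 9139 tested genes (1.85%) and 954 of all 27025 promoters (3.53%). The list was chosen as genes of a response in which ATF4 acts. Its share of this motif therefore follows in part from that choice and was not tested. Of the other motifs searched, on both strands, Cxcl10 held a match to the AP-1 site TGANTCA at -74 to -68, which overlaps one to the antioxidant response element core TGACNNNGC, and Ddit3 held an AP-1 match at -242 to -236. The AP-1 motif was present in 349 of 9139 tested genes (3.82%) and in 25 of 488 ordered genes that were higher (5.12%). Matches to the CCAAT box (CCAAT) were found in 5 of the 6 windows, and in 3450 of 9139 tested genes (37.8%). Slc7a11 and Ms4a4d held a C/EBP match (TTGCNNAA, 7.10% of tested genes), and Nupr1 an E-box (CACGTG, 8.71%) that includes the hypoxia response element core (ACGTG, 22.5%). The antioxidant core was found in 12% of tested genes, and the CRE (TGACGTCA, 2.92%) and TATA box (TATAAA, 5.84%) in none of the 6 windows. A match describes the letters in these windows and shows no binding.

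Most ordered genes of DNA replication were higher in 8276OV, and the ordered genes of mitosis were lower. Of 45 S phase genes tested, 24 were called higher and 12 lower (median 0.126), against 29.9% and 38.3% of all tested genes, and 7 of the 8 ordered ones were higher. Mcm4 and Mcm6, subunits of the replicative helicase, went from 57.2 ± 3.41 and 76.8 ± 2.94 (SD, n = 3) in 8276KD to 73.2 ± 3.06 and 95.5 ± 2.95 in 8276OV, with differences of 0.35 and 0.31. The primase and polymerase genes Prim2 and Pola1 differed by 0.48 and 0.47, the helicase factor genes Cdc45 and Mcm10 by 0.28 and 0.14, the last not called without the second 8276KD library (adjusted p = 0.106). After GC correction these 6 helicase, primase and polymerase genes kept their calls, but of them only Mcm6 was still ordered, and the differences of Mcm4, Prim2 and Pola1 were 0.20, 0.26 and 0.22. The cyclin E genes went apart: Ccne2 rose by 0.66 (0.35 after GC correction) and Ccne1 fell by 0.66. Ccne1 had 16.9, 17.8 and 17.8 in 8276KD, 16.4, 15 and 15.2 in 3NC, 14.4, 15.2 and 14.2 in 5NC and 10.4, 11.5 and 10.3 in 8276OV, so that its manipulated groups lay clear of each other and of the controls.

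Of 51 genes of the G2 and M phases, 10 were called higher and 21 lower, near the share of lower calls over all genes, with 2 and 32 after GC correction, and the 8 ordered ones were lower (6.84% of all tested genes were ordered and called lower). The median was -0.004, and -0.141 after GC correction, with 2 higher and 32 lower. Incenp, a scaffold of the chromosomal passenger complex, had 53.2, 61.9 and 55.7 in 8276KD, 49.3, 50.9 and 49.9 in 3NC, 40.2, 40.5 and 43.4 in 5NC and 27.3, 31.3 and 30.8 in 8276OV. No library of Incenp overlapped another group, and the difference was -0.91 (SE 0.063, adjusted p = 7.60e-08). Cenpa, the centromeric histone gene, fell by 0.86, the phosphatase gene Cdc25b by 0.63, and Cdc20, the activator of the anaphase-promoting complex, by 0.58. Kif22, Racgap1, Cdca3 and Ube2c, which act in chromosome movement, cytokinesis and mitotic protein turnover, fell by 0.56, 0.40, 0.37 and 0.35. After GC correction the difference was -0.37 for Cdc25b and -0.25 for Cdc20, and the Ube2c call was lost (adjusted p = 0.568). Against 5NC, however, 34 genes of the list were called higher in 8276OV and 12 lower (30.3% and 44.1% of all tested genes), and 34 were lower in 5NC than in 3NC (25.9% of all tested genes). The kinase genes Aurkb and Aurka differed by -0.95 and -0.53 and were not ordered, with 3NC above 8276KD in both (81.1 ± 1.2 and 91.1 ± 1.72 against 76.4 ± 1.6 and 81.4 ± 2.78). RNA of the whole culture was measured, so fewer cells in a phase and less RNA per cell cannot be told apart.

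Among cell adhesion genes, Cdh2, Pcdh18 and Vcam1 were ordered and higher in 8276OV, and Bcam and Jup ordered and lower. Of 22 tested, 8 were called higher and 8 lower (median 0.054), shares near those of all genes. Cdh2, the N-cadherin gene (gene 12558, chromosome 18, 16588877 to 16809246), had 50.1, 47.2 and 52.3 in 8276KD, 51.8, 52.2 and 51 in 3NC, 91, 92.1 and 91.8 in 5NC and 106, 103 and 107 in 8276OV. 8276KD and 3NC overlapped and 8276OV lay above 5NC, so the difference of 1.06 (SE 0.043, adjusted p = 8.34e-10) stood beside 0.81 between the controls and 0.19 against 5NC (adjusted p = 9.64e-04). Pcdh18, a protocadherin gene, followed the same pattern with 1.11 and 0.72. Vcam1, a ligand of integrins, had 3.39, 2.5 and 2.64 in 8276KD, 3.37, 3.31 and 3.48 in 3NC, 3.73, 3.79 and 3.49 in 5NC and 7.12, 5.49 and 5.84 in 8276OV. Its 8276OV libraries lay above all others while 8276KD overlapped 3NC, 0.90 above 8276KD and 0.61 above 5NC on the log2 scale. Bcam, a laminin receptor gene, fell by 1.09 and Jup, the plakoglobin gene, by 0.53, but Jup was not called after GC correction (adjusted p = 0.277) and the difference of Bcam was then -0.57. Neither gene was then ordered. As deposited, both stood at the edge of the order. Jup had 24.2 ± 1.36 in 3NC and 24.2 ± 3.46 in 8276OV, and Bcam 67.6 ± 2.04 in 5NC and 68.8 ± 9.45 in 8276KD. Cdh3, the P-cadherin gene, was not ordered because 5NC stood highest (16 ± 0.878 in 8276KD, 36.1 ± 2.89 in 8276OV and 65.8 ± 0.453 in 5NC). Epcam differed by 0.22 (adjusted p = 0.0259, 0.0865 without the second 8276KD library, and a difference of 0.41 after GC correction), and for Itga6 the difference was 0.07 (SE 0.088, adjusted p = 0.496); Cdh1 stayed at or below 0.07 in all libraries and was not tested. Of 15 tight and gap junction genes 7 were called higher and 4 lower, against 29.9% and 38.3% of all tested genes. After GC correction 6 were higher and 6 lower, against 28.9% and 30.6% of genes with known GC content. The ordered ones, Gjb5 and Pard6b, were both lower. Neither Gjb5 nor Pard6b was ordered after GC correction, and Gjb5 was called against neither own control (adjusted p = 0.431 and 0.901).

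The ordered immune genes went in both directions. Of 33 genes of the interferon response and antigen presentation, 15 were called higher and 12 lower (median 0.168), against 29.9% and 38.3% of all tested genes, and 22 and 7 after GC correction. The ordered interferon-stimulated genes Ifit3, Usp18 and Xaf1 rose by 0.80, 0.86 and 0.59. For Usp18 the controls differed by 0.76, and neither own-control comparison was called (adjusted p = 0.455 and 0.830). Ifit3 was low, with means of 0.57 in 8276KD, 0.58 in 3NC, 1.09 in 5NC and 1.74 in 8276OV. The ordered class I genes H2-D1 and H2-K1, the immunoproteasome gene Psmb8 and the tetherin gene Bst2 fell by 0.82, 0.64, 1.1 and 0.49. After GC correction H2-D1, H2-K1 and Bst2 differed by -0.48, -0.36 and -0.17, and Bst2 was no longer ordered. H2-D1 had 124, 138 and 123 in 8276KD, 97.8, 101 and 101 in 3NC, 112, 109 and 111 in 5NC and 64.8, 77.3 and 74.9 in 8276OV, with 8276KD above and 8276OV below all controls. Class I genes resemble one another, and reads shared between them could not be assigned with certainty. Cxcl10, described above, was the only ordered and called gene of 25 in the NF-kB and chemokine list (12.4% of all tested genes were). In that list 6 were called higher and 10 lower, against 29.9% and 38.3% of all tested genes. After GC correction 9 were higher and 7 lower, against 28.9% and 30.6% of genes with known GC content. Ccl5, a chemokine gene outside the order, was at 18 ± 0.265 in 8276KD and at 39.5 ± 1.39, 37.2 ± 3.1 and 33.2 ± 2.92 in 3NC, 5NC and 8276OV.

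Of 29 genes of TGF-beta and BMP signalling with the Id genes, 11 were called higher and 14 lower, against 29.9% and 38.3% of all tested genes, and 10 and 9 after GC correction. The median of -0.052 changed sign under 4 alternatives, among them GC correction (0.041). Id1, a helix-loop-helix inhibitor induced by BMP (gene 15901, chromosome 2, 152736251 to 152737410), had 89.2, 108 and 94.8 in 8276KD, 82, 84.8 and 91.4 in 3NC, 97.6, 88.1 and 92.7 in 5NC and 39.5, 49.1 and 51.5 in 8276OV. The controls overlapped 8276KD and lay clear of 8276OV, and the difference was -1.05 (SE 0.09, adjusted p = 4.74e-07), of which -0.98 lay against 5NC. Smad1 fell by 0.33 and Smad5 rose by 0.26, both receptor-regulated SMADs of BMP signalling. After GC correction Smad1 differed by -0.20 and the call of Smad5 was lost (adjusted p = 0.139). Tgfb2, a ligand gene of the list, was not ordered, with a difference of 1.07.

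Lysosomal genes and genes of sterol synthesis gave ordered members in one direction. Their ordered and called shares were near the 12.4% of all tested genes. Of 29 lysosomal genes, 18 were called higher and 7 lower (median 0.207), against 29.9% and 38.3% of all tested genes, and 24 and 1 after GC correction. The 4 ordered ones were higher, among them Lamp2, Cd63 and Atp6v1a, which rose by 0.68, 0.24 and 0.36 (0.40, 0.67 and 0.18 after GC correction, when of these 3 only Atp6v1a was ordered). Between the controls 24 of the 29 were called higher in 5NC (30.6% of all tested genes). Against 5NC, 8276OV was called higher at 6 and lower at 18 (30.3% and 44.1% of all tested genes). Ctsl, a cathepsin gene, was not ordered, with 365 ± 11.6 in 3NC below 439 ± 5.41 in 8276KD, and 798 ± 6.08 in 8276OV. Of 24 cholesterol synthesis genes, 3 were called higher and 15 lower (median -0.407), against 29.9% and 38.3% of all tested genes, but the 3 ordered ones were those that were higher. Against 5NC, 8276OV was called higher at 11 of the 24 and lower at 8 (30.3% and 44.1% of all tested genes). Between the controls 19 were lower in 5NC and 2 higher (25.9% and 30.6% of all tested genes). Msmo1, a sterol demethylase gene, had 35, 33 and 33.2 in 8276KD, 40.8, 43.9 and 40.4 in 3NC, 37.3, 40.6 and 38 in 5NC and 55.4, 51.7 and 55.4 in 8276OV. The manipulated groups of Msmo1 lay clear of all controls, with a difference of 0.67, and those of Sc5d and Cyp51 were 0.51 and 0.23. After GC correction Sc5d differed by 0.29 and Cyp51 was not called (adjusted p = 0.0568). The 15 genes that fell were not ordered, among them Mvd, the mevalonate diphosphate decarboxylase gene, with 14 ± 1.55 in 8276KD, 19.4 ± 0.585 in 3NC, 9.56 ± 0.765 in 5NC and 5.79 ± 0.157 in 8276OV.

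Of 29 NRF2 targets, which defend against oxidants, 3 were called higher and 21 lower (median -0.523), against 29.9% and 38.3% of all tested genes. Between the controls 22 of the 29 were lower in 5NC and 2 higher (25.9% and 30.6% of all tested genes). Against 5NC, 8276OV was called lower at 17 and higher at 5 (44.1% and 30.3% of all tested genes). The ordered falls were those of the glutathione genes Gclc, Gsr and Gss, by 0.88, 0.58 and 0.32, while Slc7a11, which is also in the stress response list, rose. Gclc, the catalytic subunit of glutathione synthesis, stood at 16.8 ± 0.142 in 8276KD and 16.2 ± 0.434 in 3NC against 9.2 ± 0.329 in 5NC and 8.64 ± 0.475 in 8276OV, and neither own-control comparison was called (adjusted p = 0.167 and 0.529). Among 40 heat shock and chaperone genes, 12 were called higher and 17 lower, shares near those of all tested genes, and 9 and 26 after GC correction. Against 5NC, however, 28 of the 40 were called higher in 8276OV and 8 lower (30.3% and 44.1% of all tested genes). Between the controls 28 were lower in 5NC and 2 higher (25.9% and 30.6% of all tested genes). Hspa9, the mitochondrial HSP70 gene, rose by 0.68, and the ordered falls were those of Hspa2 (-1.19), Hspb1 (-0.75, and -0.20 after GC correction) and Hspb8 (-0.74). Hspb1 was no longer ordered after GC correction. Of 80 cytosolic ribosomal protein genes, 39 were called higher and 20 lower, against 29.9% and 38.3% of all tested genes, with 47 and 16 under median-of-ratios factors and 45 and 11 after GC correction. Rpl3 and Rpl41 were ordered (12.4% of all tested genes were ordered and called); processed copies make the reads of such genes uncertain. Mitochondrial ribosome and oxidative phosphorylation genes had 5 ordered and called members each, of 78 and 74, where 12.4% of all tested genes were ordered and called. Of these, Atp5a1, Cox8a and Ndufb10 were lower in 8276OV and changed sign after GC correction (0.17, 0.17 and 0.03, the last not called). Ordered and called among proteasome and splicing genes were 2 of 41 and 1 of 43, the latter the splicing factor gene Srsf2 (-0.63).

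Of 10 germ cell markers tested, 6 were called lower in 8276OV and 1 higher, against 38.3% and 29.9% of all tested genes (median -0.449, and -0.217 after GC correction), and the summed level of the list was 155 to 176 in 8276KD, 159 to 162 in 3NC, 119 to 131 in 5NC and 92.1 to 105 in 8276OV. Tex19.1, a germline gene that restrains retrotransposons, was the most abundant of them and made up most of that sum in every group. It had 105, 125 and 116 in 8276KD, 103, 100.03 and 101 in 3NC, 76.4, 66.9 and 67.2 in 5NC and 55.8, 64.5 and 61.5 in 8276OV. It was ordered, with a difference of -0.92 (SE 0.07, adjusted p = 1.79e-07), but no longer ordered after GC correction. Id4, a marker of stem spermatogonia, had 2.09, 1.37 and 1.79 in 8276KD, 1.54, 1.82 and 1.33 in 3NC, 1.32, 1.3 and 1.21 in 5NC and 0.82, 0.46 and 0.46 in 8276OV. Its libraries in 8276OV lay below all others, with a difference of -0.80 (SE 0.11, adjusted p = 3.57e-05). Etv5 differed by -0.56 (adjusted p = 9.55e-05) and was not ordered, since 3NC stood at 7.81 ± 0.0854 above 8276KD at 4.09 ± 0.437, while Gfra1 did not pass the filter.

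Markers of other cell types are given beside all tested genes, of which 29.9% were called higher and 38.3% lower. The share of all tested genes both ordered and called was 12.4%. Of 14 mesothelial and surface epithelial markers, 7 were called higher and 6 lower (7 and 3 after GC correction), and the ordered ones, Wt1, Krt18 and Krt19, fell by 0.28, 0.75 and 0.78. None of the 3 stayed ordered after GC correction, the call of Wt1 was lost (adjusted p = 0.341), and Krt18 and Krt19 differed by -0.38 and -0.36. The summed level of the whole mesothelial list was 1070 to 1190 in both manipulated groups, 774 to 789 in 3NC and 1420 to 1440 in 5NC. Of 8 myoid markers 4 were lower and 1 higher (3 and 3 after GC correction), with Cnn1 ordered and a summed level of 96.3 to 112 in 8276KD and 83.3 to 97.6 in 8276OV. Of 7 Sertoli markers 2 were lower, of which Wt1 was ordered, and of 3 Leydig markers 1 was lower and not ordered. The only tested endothelial marker, Flt1, was ordered and lower (-0.44), and the only tested macrophage marker, Cd68, was lower and not ordered (-0.47, and -0.27 after GC correction); the part of such cells in the differences was not tested.

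The largest rises among genes that were not ordered mostly had a control difference of the same sign. Flrt3, an adhesion protein gene (gene 71436, chromosome 2, 140658198 to 140671476), had 8.47, 7.09 and 7.32 in 8276KD, 4.38, 4.41 and 4.5 in 3NC, 23.3, 26.1 and 25 in 5NC and 44.2, 41.6 and 44.3 in 8276OV. Knockdown thus lay above 3NC and overexpression above 5NC, and the difference of 2.37 (SE 0.065, adjusted p = 7.91e-11) compared with 2.25 between the controls. Igfbp2, the gene of an insulin-like growth factor binding protein, had 21.2, 22.3 and 17.7 in 8276KD, 12.9, 10.9 and 9.34 in 3NC, 129.8, 138 and 136 in 5NC and 82.4, 104 and 95.9 in 8276OV. Its controls lay outside on both sides, with 3.50 between them against 2.15 between the manipulations. Npr3, the natriuretic peptide clearance receptor gene, differed by 1.77 and Mmrn1 by 1.79, beside control differences of 2.17 and 1.61.

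Gsta1, a glutathione transferase gene, had controls that differed in the opposite direction. It had 11.2, 8.49 and 9.19 in 8276KD, 63.5, 65 and 67.9 in 3NC, 20.2, 17.1 and 20.8 in 5NC and 41.2, 47.8 and 41.3 in 8276OV. 3NC was above all other groups, and the difference of 2.07 (SE 0.093, adjusted p = 1.92e-09) stood against -1.71 between the controls, 1.13 against 5NC and -2.65 for 8276KD against 3NC. Reads of Gsta1 can be shared with other Gsta genes. Ugt2a2, a glucuronosyltransferase gene that shares exons with its neighbour, had 5.17, 4.84 and 3.96 in 8276OV and was listed at 0 in every 8276KD and 3NC library and in the first and second 5NC libraries, so no fold is given.

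The falls outside the order were led by Angptl4, a secreted inhibitor of lipoprotein lipase, with 17.7, 19.2 and 18.2 in 8276KD, 13.4, 12 and 13.4 in 3NC, 2.31, 2.35 and 2.95 in 5NC and 3.29, 3.03 and 3.32 in 8276OV. 5NC lay below 8276OV, and the difference of -2.20 (SE 0.075, adjusted p = 2.22e-10) stood beside -1.98 between the controls. Fosl1, an AP-1 gene, had 7.75, 9.77 and 7.6 in 8276KD, 31.2, 29.8 and 31.9 in 3NC, 1.61, 1.98 and 1.58 in 5NC and 1.42, 1.09 and 2.18 in 8276OV. Its control difference of -3.56 was larger than that of the manipulations (-1.89), and so was that of Etv4, an ETS factor gene (-2.82 and -1.66). Mpp2, a scaffold protein gene, differed by -1.62 and Cd99, a surface glycoprotein gene listed at 0 in the second 8276OV library, by -1.87 (SE 0.38, adjusted p = 0.00119), the latter beside a control difference of opposite sign (1.03).

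**Figure D4:**
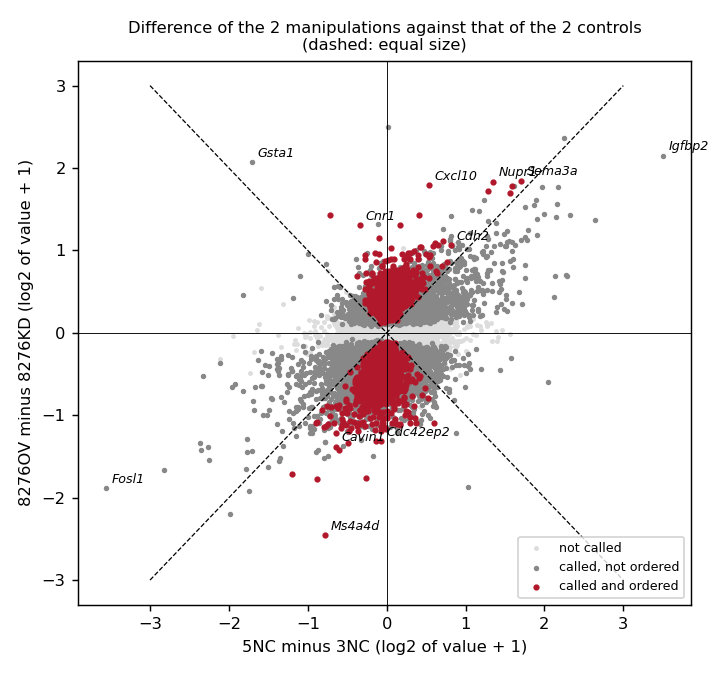
Log2 difference of 8276OV minus 8276KD (vertical axis) against 5NC minus 3NC (horizontal axis) for the 11360 tested genes; red points are called and ordered, grey points called and not ordered, light points not called, and dashed lines mark equal size. Ordered genes lie where the manipulations differ by more than the controls, and Igfbp2 and Fosl1 lie beyond the lines, with control differences of 3.50 and -3.56.

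Genes of hypoxia and glycolysis were the list with the lowest median and had a single ordered and called member. Of 35 tested, 28 were called lower in 8276OV (38.3% of all tested genes) and 7 were not called, with a median of -0.628 (-0.445 after GC correction, with 26 lower). Between the controls 32 of 35 were lower in 5NC (median -0.63), and against the own controls 25 were lower and 4 higher in 8276OV (44.1% and 30.3% of all tested genes) and 32 lower and 1 higher in 8276KD (19.5% and 20.0%). Slc16a3, the lactate exporter gene, showed this in every library, with 89.1, 106 and 91 in 8276KD, 139, 139.6 and 139.6 in 3NC, 42.1, 40.9 and 39.97 in 5NC and 20.4, 28.8 and 24.8 in 8276OV. 3NC was highest and 8276OV lowest, so both manipulations lay below their control and the order failed. The oxygen sensor gene Egln3 and the glycolytic enzyme gene Pfkp differed by -1.29 and -0.95. The ordered member was Pfkfb3, a regulator of glycolysis, whose mean went from 9.95 ± 0.262 (SD, n = 3) in 8276KD to 8.22 ± 0.139 in 8276OV.

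Among extracellular matrix, collagen and ERK genes 2 were ordered and called, where 12.4% of all tested genes were. Beside each list that follows, 29.9% of all tested genes were called higher and 38.3% lower. After GC correction these shares were 28.9% and 30.6% of genes with known GC content. Of 31 matrix genes, 12 were called higher and 10 lower, against 29.9% and 38.3% of all tested genes, and 21 and 5 after GC correction, with Lamb1 and Loxl2 ordered, both lower and neither called after GC correction (adjusted p = 0.473 and 0.488). Dcn, the decorin gene, rose from 52.8 ± 2.38 in 8276KD to 144 ± 7.18 in 8276OV, but 3NC lay at 21.6 ± 0.703, below both. Of 16 collagen genes 7 were called higher and 7 lower, or 10 and 1 after GC correction, and 0 were ordered (13.2% of all tested genes were). The median of the matrix list was 0.085 and that of the collagens -0.134, and after GC correction they were 0.316 and 0.295. Of 21 genes of ERK feedback and the PEA3 family of ETS factors, 2 were called higher and 12 lower (median -0.441), and again 0 were ordered. Of 26 immediate early and AP-1 genes 8 were called higher and 13 lower, or 11 and 7 after GC correction, and the ordered ones, Dusp2, Ier5 and Nr4a2, fell by 0.68, 0.72 and 0.41; Dusp2 lost its call after GC correction (adjusted p = 0.108). Of 24 integrin and focal adhesion genes 5 were called higher and 15 lower, or 7 and 8 after GC correction, with Itgav (0.27, not called after GC correction, adjusted p = 0.277) and Tns2 (-0.65, and -0.19 after GC correction) ordered. Of 28 p53 targets 9 were called higher and 12 lower, shares near those of all tested genes, with Rrm2b (0.59, and 0.31 after GC correction) and Tigar (-0.15, not called without the third 8276OV library, adjusted p = 0.0994) ordered, while Cdkn1a, the gene of the cell cycle inhibitor p21, fell by 1.43 outside the order, with 3NC at 71 ± 1.18 and 8276KD at 45.7 ± 1.74. Of 18 glutathione transferase genes 3 were called higher and 6 lower, or 6 and 5 after GC correction, and 0 were ordered.

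**Figure D5:**
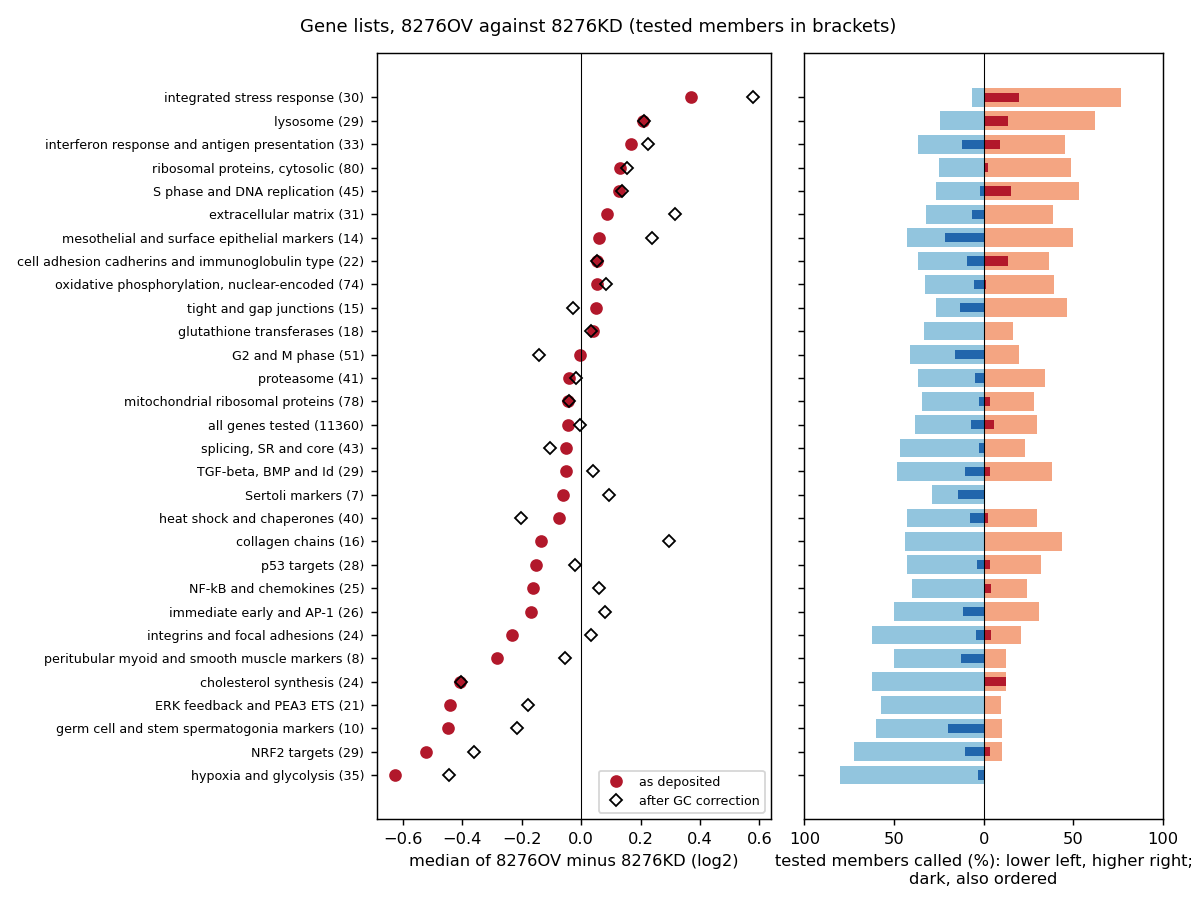
Left, median log2 difference of 8276OV minus 8276KD for each gene list with at least 5 tested members, as deposited (circles) and after GC correction (diamonds). Right, share of tested members (%) called higher (to the right) and lower (to the left), with the ordered share in dark; hypoxia and glycolysis has 28 of 35 members lower and 1 of them ordered, the integrated stress response 23 of 30 higher and 6 of them ordered.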

How the data were processed

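Total RNA of 12 libraries (4 groups of 3) was sequenced by the authors, who deposited one table of 17576 genes with a value per library. The values were read as FPKM from their range, sums and decimals, because the deposited table names no unit, and TPM cannot be told apart from it with certainty. The submitters' processing notes name mm10 as the build; aligner, quantifier and annotation are not stated in any source used here. FPKM are not counts, so no count test was used. In the deposited table, 25 symbols turned into dates and 2 shared symbols were repaired through the gene IDs, and 17458 IDs matched a RefSeq entry. Coordinates are those of RefSeq on GRCm38.p6.

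Log2(value + 1) was computed from the deposited values, so fold changes of low genes are understated. Genes that reached 1 in 3 or more libraries were tested with limma 3.58.1 in R 4.3.3 (lmFit, then eBayes with trend and robust). One mean per group was fitted to all 12 libraries, with 8 residual degrees of freedom, and two-sided p-values were adjusted by the Benjamini-Hochberg method over the 11360 genes, with a threshold of 0.05. An exact permutation test of 3 against 3 libraries cannot give a p below 0.1 and was not used. The depth was 11600000 to 13200000 fragments per library, an approximation, and it limits the precision of low values. The method was tested on simulated data. GC content was that of the longest transcript, and its trend was removed per library with a spline of 5 degrees of freedom. Replicate numbers were not taken to pair the libraries in the main fit.

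The ordered genes, gene lists and tests were chosen with earlier results of these data known. Named are the 10 largest ordered rises and falls and the 6 largest of each among genes not ordered, with no overlap between 8276OV and 8276KD, a mean of at least 1 and no clone name. Also named are up to 3 members of each list with the smallest p, the ordered members of the lists, and Cdh1, Cdh2, Epcam, Itga6, Gfra1, Id4 and Etv5. Some genes that these rules select are not reported here. The ordered members of lists were added after their values were seen. Alternatives were other pseudocounts, filters, scalings, GC correction, fits, definitions of the order and each library left out.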

Additional observations from a re-analysis of the deposited data

How the results depend on the processing

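The number of genes called between 8276OV and 8276KD was 6608 to 7956 under all alternatives apart from leaving out single libraries (6992 to 7853), and every one of these counts was within 1.5 times 7744. With the replicate block 7704 genes were called, 1497 were ordered and 1405 were both. The same-numbered deviations of 8276OV and 8276KD correlated at 0.467, 0.59 and 0.0287, and those of unlike numbers at -0.602 to 0.359. Over all groups the same-numbered deviations correlated at -0.254 to 0.59. The numbers were not taken to pair the libraries in the main fit, and whether they mark a shared batch was not tested. Genes both called and ordered numbered 1112 without 8276KD replicate 2 and 1716 without 8276KD replicate 1. Of the 1408 such genes, 1038 kept call, sign and order without 8276KD replicate 2, 1016 without the second libraries of both groups, 1064 under quantile normalization, 1228 with median-of-ratios factors and 650 of 1385 after GC correction. With both controls at least 0.1 inside, 479 genes were ordered and 478 also called (204 higher, 274 lower). With every control library between, 287 were ordered and 287 called (108 and 179).

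The list medians below moved or reversed sign, and their cause was not tested. With a pseudocount of 0.1 they were -0.181 for p53 targets (main value -0.154) and -0.53 for ERK and PEA3. With a minimum of 5 they were -0.0655 for p53 targets, -0.776 for myoid markers and, reversed, -0.0071 for interferon and 0.0257 for TGF-beta. Quantile normalization gave 0.105 for adhesion, 0.117 for junctions, -0.316 for cholesterol, -0.0554 for p53 targets, -0.359 for ERK, -0.0568 for NF-kB, -0.347 for germ cell and 0.158 for mesothelial markers, TGF-beta reversed to 0.00374, and Sertoli markers changed sign within the spread (0.0526). Median-of-ratios factors gave 0.103 for adhesion, -0.354 for cholesterol, -0.105 for p53 targets, 0.0158 for mitochondrial ribosomal proteins, 0.184 for S phase and 0.0551 for G2 and M phase, and the proteasome (0.0144) and TGF-beta (0.00408) reversed; the sign of mitochondrial ribosomal proteins, G2 and M phase and, within the spread, splicing genes (0.0065) also changed. GC correction gave -0.445 for hypoxia, 0.316 for matrix, 0.295 for collagens, -0.0272 for junctions, -0.0215 for p53 targets, -0.361 for NRF2 targets, -0.178 for ERK, -0.141 for G2 and M phase, -0.202 for chaperones, 0.579 for the integrated stress response, -0.217 for germ cell, -0.0564 for myoid and 0.239 for mesothelial markers. The medians of collagens and junctions thereby changed sign from -0.134 and 0.049, and that of Sertoli markers changed from -0.061 to 0.0923, a shift within the spread between libraries. GC correction also reversed integrins (0.0336), immediate early genes (0.0795), NF-kB (0.0596) and TGF-beta (0.0413), and the genes Star (-0.0637), Fdx1 (-0.146), Atp5a1 (0.173), Cox8a (0.174) and Ndufb10 (0.031). Without the second libraries ERK was -0.512 and S phase 0.105, and Itga6 reversed to -0.00721.

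Leaving out one library at a time gave 0.049 to 0.0923 for adhesion, -0.164 to -0.0655 for p53 targets, -0.0835 to -0.0238 for the proteasome, 0.115 to 0.136 for S phase, -0.0417 to 0.0115 for G2 and M phase, 0.1 to 0.209 for interferon and -0.084 to -0.0225 for TGF-beta. It gave -0.0636 to 0.106 for Fdx1 and -0.0248 to 0.131 for Itga6. The call of Epcam was lost when only 8276OV and 8276KD were fitted (adjusted p = 0.0505 by limma), and without any one of 8276KD replicates 2 and 3 and 8276OV replicates 1 and 3 (0.0561 to 0.0865). Over all alternatives, the 181 named genes kept direction and side of the threshold in 4090 refits, lost the call in 41, gained one in 3 and reversed in 8. Depth limits genes near the minimum of 1, and without that filter 2041 genes were ordered and 1575 also called.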
